A study of Mus musculus with 2 samples.

Results

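Macrophages of arthritic mouse joints that were chosen for joint expression of Cav1, Ndrg1 and Tppp3 numbered 918 of 7322 C1q-positive cells, out of 12956 cell barcodes in 2 single-cell libraries. A cell was considered C1q-positive if it held at least 500 detected genes, at most 10% mitochondrial counts, at least 10 unique molecular identifiers (UMIs) of C1qa, C1qb and C1qc together and fewer than 5 UMIs of Ccl17 and Cd209a together. Each such cell was scored for 7 sets of 3 genes as the mean z value, over all C1q-positive cells, of the log-transformed UMIs per 10000. Cells in which the Cav1, Ndrg1 and Tppp3 score was the highest of the 7 and at least 0.5 were the members. Since measured values chose the members, all levels of members against other cells are given as descriptions, with no test.

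The study asked whether trained immunity, the heightened response of innate cells after an earlier stimulus, alters the myeloid cells of inflamed joints. Mice received β-glucan, a fungal cell wall polysaccharide, or PBS, and arthritis was induced in both groups 7 days later. CD45+CD11b+ cells were sorted from the synovial tissue at day 17 of arthritis, and cells of 4 mice were pooled in each group. The mice were wild-type C57BL/6, aged 7 to 10 weeks when the experiments began. The sample labels describe arthritogenic antibodies followed by LPS, whereas the series design and the study's methods describe transfer of K/BxN serum; either way no group was free of arthritis. The β-glucan library held 7196 barcodes and 81611849 UMIs, and the PBS library 5760 barcodes and 73874602 UMIs. One library represents each group, so differences between β-glucan and PBS cannot be set against a spread between replicates and were not tested. All intervals in the text are exact, at 95%, and cover counting error only.

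Caveolin-1, the product of Cav1, coats the flask-shaped membrane pits called caveolae. NDRG1 is a cytoplasmic protein known to be induced by low oxygen and by cell stress, and TPPP3 promotes the assembly of tubulin. Osteopontin, encoded by Spp1, is a secreted matrix protein that binds integrins and CD44, and the ecto-enzyme CD73, encoded by Nt5e, turns extracellular AMP into adenosine. Synovial macrophages include long-lived resident cells of the joint lining and sublining, which carry scavenger receptors such as MRC1, CD163 and LYVE1, and cells that arise from blood monocytes during inflammation.

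Members made up 553 of 4242 C1q-positive cells in the β-glucan library (13.0%, Clopper-Pearson interval 12.04 to 14.09%) and 365 of 3080 in the PBS library (11.9%, 10.7 to 13.0%). The 2 intervals overlapped. Member scores had medians of 1.09 (β-glucan) and 1.15 (PBS), with maxima of 3.01 and 2.63. Members held a median of 13713 and 16810 UMIs per cell, against 13312 and 15566 in the other C1q-positive cells, so depth differed more between the libraries than between members and other cells. The median share of mitochondrial UMIs was 2.82% and 3.11% in members and 3.21% and 3.40% in the others.

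The border of this population was not sharp. At least 0.5 in a further set was reached by 230 β-glucan members (41.6%) and 194 PBS members (53.2%), most often in the set of Olr1, Pdpn and Rgs1 (189 of 918 cells), in that of Aqp1, Ildr2 and Uaca (116 cells) and in that of Gpnmb, Ms4a7 and Cd93 (112 cells). Another 392 and 300 cells scored at least 0.5 for Cav1, Ndrg1 and Tppp3 but higher in another set. Cells just inside the threshold, at 0.5 to 0.6, had 105 CPM of Cav1 (β-glucan) or 123 CPM (PBS), and those just outside, at 0.4 to 0.5 with this set still the highest, had 78.0 and 101 CPM. CPM denotes UMIs of a gene per 1000000 UMIs, summed over the cells of a group within 1 library, and paired values without a group name give the β-glucan library first and the PBS library second. For Nt5e the values were 46.7 and 37.9 CPM just inside and 46.4 and 53.0 CPM just outside. Each library held 17 to 32 cells in either range.

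The Cav1 gene lies on chromosome 6 of GRCm39 (chr6:17306140-17341451, plus strand), Ndrg1 on chromosome 15 (chr15:66801166-66841835, minus strand) and Tppp3 on chromosome 8 (chr8:106193662-106198158, minus strand). Spp1 lies on chromosome 5 (chr5:104582165-104589235, plus strand), where the annotation has a further transcript, Gm42793, inside it on the same strand, and Nt5e on chromosome 9 (chr9:88209089-88254146, plus strand). Promoter windows from RefSeq, on GRCm38.p6 rather than the build of the count tables, are shown for Cav1, for the 2 genes that were not used to choose the cells, Spp1 and Nt5e, and for Slc2a1, the glucose transporter described with the hypoxia genes. Each runs from 250 bases before to 50 bases after an annotated start and is on the plus strand: Cav1 at chr6:17306085-17306384, Spp1 at chr5:104434861-104435160, Nt5e at chr9:88327359-88327658 and Slc2a1 at chr4:119108495-119108794. Capitals mark matches, on either strand, to ACGTG or GCGTG (the core of hypoxia response elements), TGANTCA (the AP-1 type motif) or TATAAA.
Cav1: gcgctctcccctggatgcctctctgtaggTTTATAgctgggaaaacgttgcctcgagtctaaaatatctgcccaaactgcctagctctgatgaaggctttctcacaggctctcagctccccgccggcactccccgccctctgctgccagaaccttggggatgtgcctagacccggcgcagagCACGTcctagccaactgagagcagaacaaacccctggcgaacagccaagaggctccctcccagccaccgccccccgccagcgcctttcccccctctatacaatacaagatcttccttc
Spp1: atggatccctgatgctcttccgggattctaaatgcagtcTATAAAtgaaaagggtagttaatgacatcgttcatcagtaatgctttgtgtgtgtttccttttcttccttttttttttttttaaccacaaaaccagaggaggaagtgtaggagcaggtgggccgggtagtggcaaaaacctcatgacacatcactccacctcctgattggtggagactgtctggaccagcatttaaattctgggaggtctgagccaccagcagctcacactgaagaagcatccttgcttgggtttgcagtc
Nt5e: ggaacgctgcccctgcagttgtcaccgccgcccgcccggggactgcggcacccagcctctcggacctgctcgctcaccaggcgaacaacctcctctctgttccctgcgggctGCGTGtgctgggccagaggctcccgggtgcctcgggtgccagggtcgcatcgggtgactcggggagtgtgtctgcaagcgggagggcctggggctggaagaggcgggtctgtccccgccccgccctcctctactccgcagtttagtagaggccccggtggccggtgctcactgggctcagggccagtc
Slc2a1: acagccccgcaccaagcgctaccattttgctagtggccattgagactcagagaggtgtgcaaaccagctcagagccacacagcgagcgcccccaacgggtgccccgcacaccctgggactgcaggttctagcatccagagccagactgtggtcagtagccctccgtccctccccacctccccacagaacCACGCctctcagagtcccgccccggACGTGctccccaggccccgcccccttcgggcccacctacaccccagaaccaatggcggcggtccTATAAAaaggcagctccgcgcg
A second annotated start of Cav1 (window chr6:17307390-17307689) and of Spp1 (chr5:104435942-104436241) had no match to any of the motifs. The printed Cav1 window held ACGTG on the minus strand 68 to 64 bases before the start, and the Nt5e window held GCGTG on the plus strand 138 to 134 bases before it. The Slc2a1 window held both cores, and the Spp1 window neither. Among 32851 such windows, ACGTG or GCGTG was present in 43.8%, TGANTCA in 7.81% and TATAAA in 13.6%, so these letters are common and the matches are descriptions of the sequence only.

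The 3 genes of the rule were carried jointly by most members. All 3 were detected in 64.2% of β-glucan members and 69.0% of PBS members, against 8.95% and 9.28% of the other C1q-positive cells, and all but 1 of the 918 members had UMIs of at least 2 of them. Cav1 stood at 238 CPM (Poisson interval 228 to 249) with β-glucan and 229 CPM (218 to 241) in PBS members. Cells of the Olr1, Pdpn and Rgs1 set came next with 111 and 110 CPM, while those of the Ednrb, C4b and Enpep set had 7.81 and 9.34 CPM. Ndrg1 stood at 175 and 178 CPM in members and at most at 59.3 and 58.2 CPM elsewhere, in the Aqp1, Ildr2 and Uaca set. Tppp3 stood at 1518 and 1639 CPM in members, and the same Aqp1 set followed closely with 1225 and 1217 CPM. Since these 3 genes chose the members, their higher detection and levels in members follow largely from the selection. As a description, Tppp3 was shared with the Aqp1 cells and Cav1, at a lower level, with the Olr1 cells. Ndrg1 did not exceed 59.3 CPM in any of the other 6 sets, from which cells with this score highest were kept out.

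Spp1 and Nt5e, which the rule did not use, did not mark the members alone. Spp1 stood at 572 CPM (556 to 588) in β-glucan members and 730 CPM (710 to 751) in PBS members. The Olr1, Pdpn and Rgs1 cells had 655 CPM (637 to 673) and 702 CPM (678 to 725), which was above the members in the β-glucan library and overlapped them in the PBS library. The Gpnmb, Ms4a7 and Cd93 cells followed with 489 and 592 CPM, and the lowest level was 33.9 and 19.1 CPM in the Ednrb, C4b and Enpep cells. Spp1 was therefore shared by 3 of the sets, and the cells are named here by Cav1, Ndrg1 and Tppp3. Nt5e was at its highest in members, with 79.7 CPM (73.7 to 86.1) and 66.2 CPM (60.1 to 72.8), but the Olr1 cells had 61.9 CPM (56.4 to 67.8) and 59.97 CPM (53.3 to 67.2), and the PBS intervals of the 2 sets overlapped. In the remaining sets Nt5e did not exceed 15.9 CPM, and cells of no set had 20.4 and 20.2 CPM.

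**Figure D1:**
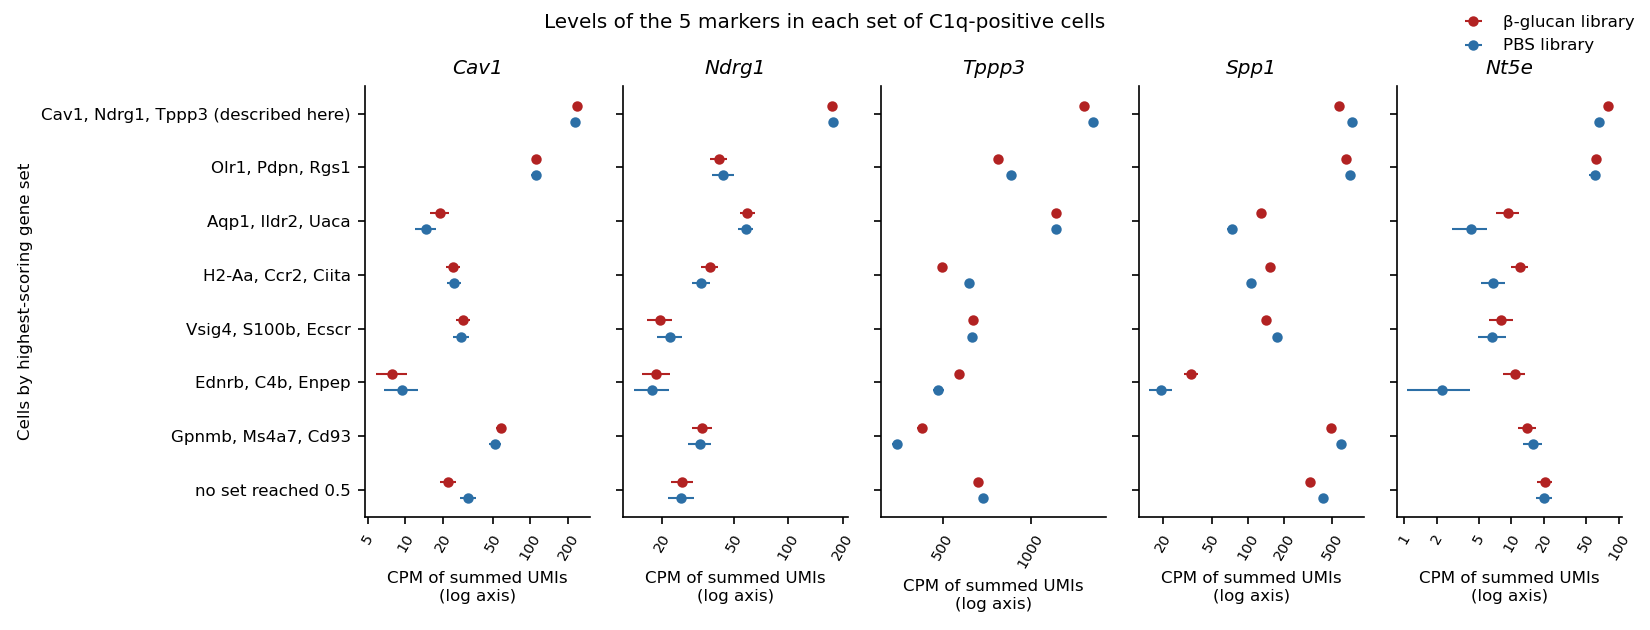
CPM of summed UMIs on log axes for Cav1, Ndrg1, Tppp3, Spp1 and Nt5e in the 7 sets of C1q-positive cells and in cells that reached 0.5 in no set, with 1 point per library and 95% Poisson intervals as bars. Members are at the right of the Cav1, Ndrg1 and Tppp3 panels by the way they were chosen, while in the Spp1 panel the Olr1, Pdpn and Rgs1 cells reach 655 and 702 CPM beside 572 and 730 CPM in members.

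Most Spp1 UMIs came from a minority of the member cells. The median member had 1 UMI of Spp1 in either library, whereas the highest cell had 171 (β-glucan) or 350 (PBS), and the 55 and 36 members with most Spp1 UMIs held 67.2% and 70.8% of its UMIs. Vim, which encodes the intermediate filament vimentin, was by contrast spread over all members, with a median of 100 and 146 UMIs per cell. When every cell was thinned to 5000 UMIs, Spp1 was detected in 43.4% and 44.8% of members, in 24.99% and 24.3% of other C1q-positive cells and in 5.92% and 1.82% of B cells, which should lack it. Unthinned, 56.4% and 58.9% of members had a UMI. Thinned Nt5e was detected in 19.5% and 20.2% of members, 5.92% and 4.90% of other C1q-positive cells, and 0% and 0.606% of B cells. Thinning left out 14 and 8 members with fewer UMIs. The median B cell held 5546 and 6005 UMIs before thinning.

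The members had the general marks of macrophages. All 10 macrophage markers stood at 10 CPM or more in both libraries, and their sum was 8149 and 8048 CPM, below the 11669 and 12233 CPM of the other C1q-positive cells. Monocyte markers summed to 288 and 230 CPM, mostly Ccr2 (206 and 163 CPM), and dendritic cell markers to 33.9 and 40.1 CPM, mostly Flt3. B cell markers summed to 6.28 and 6.16 CPM and T or natural killer cell markers to 3.57 and 0.154 CPM. Mast cell markers summed to 140 and 68.6 CPM, above the 42.2 and 24.9 CPM of the other C1q-positive cells, with Cma1, a mast cell chymase, as the most abundant (56.9 and 33.3 CPM). Neutrophil markers summed to 215 and 104 CPM, led by S100a9 in the β-glucan library and by S100a8 in the PBS library. Stromal markers summed to 45.4 and 132 CPM, against 218 and 118 CPM in the others. At least 10 UMIs of the markers of another cell type were present in 19 β-glucan members (3.44%) and 10 PBS members (2.74%), of which mast cell markers accounted for 5 and 2 cells. Their part in the comparisons was not tested, but counts made without these cells are given with the processing alternatives. Of 6 markers of mature osteoclasts, the multinucleated cells that resorb bone, only Ctsk reached 10 CPM, while Oscar was at 0 in the β-glucan library and the calcitonin receptor gene Calcr in the PBS library. Cycling markers summed to 39.9 and 107 CPM, endothelial markers to 17.1 and 5.55 CPM, and erythrocyte and platelet markers to 5.05 and 1.85 CPM. At 0 in PBS members were also the neutrophil gene Ly6g, the T cell genes Cd3d, Cd3e, Cd3g and Trac, and the endothelial genes Emcn, Egfl7 and Cldn5.

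The comparison of members with the other C1q-positive cells asked what else these cells carried. Nt5e, Anxa8, Slco3a1, Rgcc and Spp1 were higher in members in both libraries, and MHC class II genes, resident scavenger receptors and Apoe were lower. Of 8720 genes with at least 10 CPM in members or in others, 49 were at least 2-fold higher in members in both libraries (0.562%), among them the 3 genes of the rule, and 185 were at least 2-fold lower in both (2.12%), among them 11 genes that chose the other sets. The median log2 ratio over all 8720 genes was -0.01, and 3331 genes (38.2%) were higher and 3581 genes (41.1%) lower in members in both libraries at any size. The shares of all genes given here stand beside the count of every gene group below. Cells of the other sets were selected for their own genes, so a gene that goes with H2-Aa or Vsig4, for example, is lower in members partly by construction.

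Among genes with at least 50 CPM in members, Nt5e had the largest mean ratio outside the rule, with log2 ratios of 2.05 (1.90 to 2.19) and 2.17 (1.99 to 2.35) in the β-glucan and PBS libraries. Anxa8, which encodes an annexin that binds membrane phospholipids, had 66.5 CPM in β-glucan members and 73.5 CPM in PBS members, against 11.7 and 27.1 CPM in the others. The ratio of Anxa8 thus differed between the libraries, 2.51 and 1.44 on the log2 scale, while its level in members did not differ between them by more than counting error. Rgcc, a regulator of the cell cycle, had 252 and 356 CPM against 89.5 and 146 CPM. Slco3a1, an organic anion transporter, had 159 and 124 CPM in members against 56.9 and 45.8 CPM. Kcnn4 and Ckb were just past 2-fold in both libraries. Kcnn4, a calcium-activated potassium channel, had 154 and 181 CPM against 74.1 and 84.1 CPM, and Ckb, the brain-type creatine kinase, had 364 and 450 CPM against 178 and 210 CPM. The adhesion genes L1cam and Itgb7 had log2 ratios of 1.39 and 1.15, and of 1.32 and 1.27. Acot7, an acyl-CoA thioesterase, AA467197, the LIM-domain gene Crip2, the Rac activator Dock5 and Glipr2 were also among the 15 genes with the highest mean ratio of those with at least 50 CPM, at log2 ratios of 0.999 to 1.69. The mast cell genes Cma1 (56.9 and 33.3 CPM) and Mcpt4 (61.2 and 36.5 CPM) passed 50 CPM only with β-glucan and were not ranked. Their mean log2 ratios were 1.54 and 1.44.

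At the other end, Mgl2, a galactose-binding lectin, had 9.73 and 23.0 CPM in members against 82.9 and 109 CPM in the others, a log2 ratio of -3.09 and -2.25. The related lectin gene Clec10a had ratios of -2.46 and -2.36. H2-Eb1 had 111 and 163 CPM against 625 and 900 CPM. However, cells that reached 0.5 in no set had 86.2 and 179 CPM of H2-Eb1, close to the members, and the cells chosen for H2-Aa, Ccr2 and Ciita had 2900 and 3601 CPM, so the low H2-Eb1 ratio rested on those cells. Cd163, the haemoglobin scavenger receptor, stood at 80.3 and 88.4 CPM in members and at 319 and 195 CPM in cells of no set, so it was lower in members against both. Aoah, which removes acyl chains from LPS, Plekhg5, Cmah, the growth factor receptor gene Egfr and the transferrin gene Trf had log2 ratios between -1.65 and -2.79. Sparc, a matricellular protein gene, had 37.3 and 60.7 CPM in members, and its high level among the others lay in the Vsig4, S100b and Ecscr cells (1081 and 1054 CPM).

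**Figure D2:**
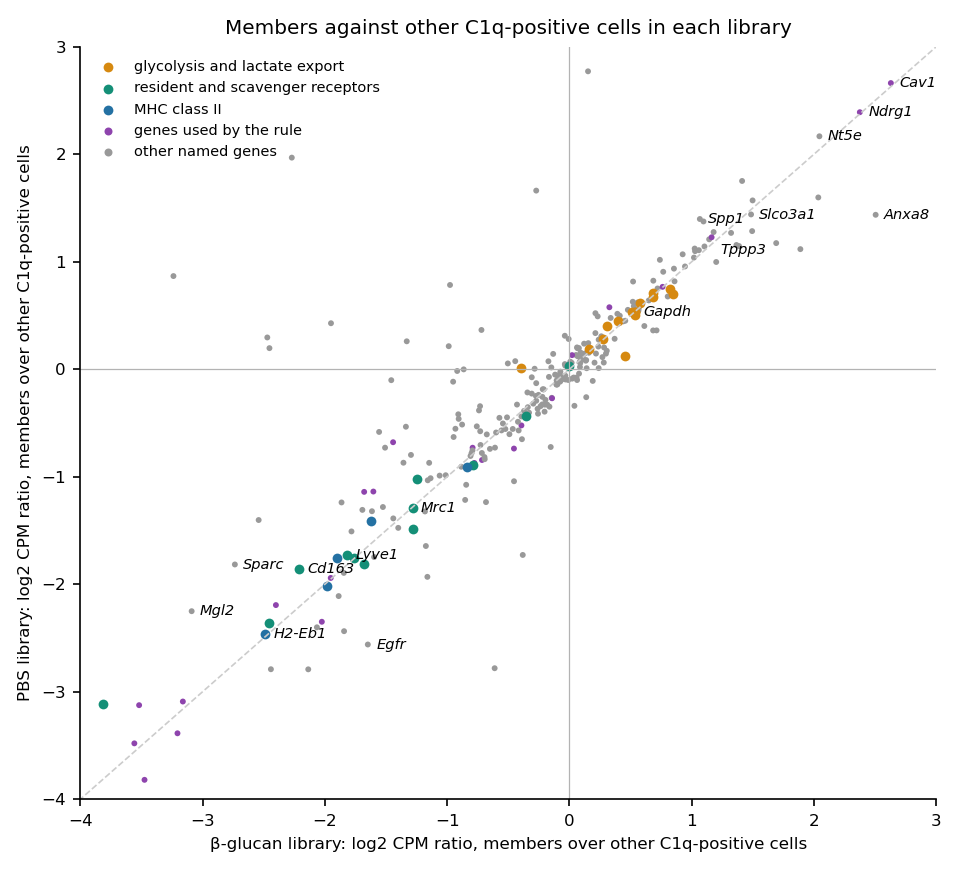
Log2 CPM ratio of members over other C1q-positive cells in the β-glucan library (horizontal axis) and the PBS library (vertical axis), with 1 point per named gene and the dashed line where both are equal. Nt5e lies at 2.05 and 2.17, the glycolysis genes lie above 0 apart from Hk3, and the MHC class II genes lie below 0.

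Caveola genes did not follow Cav1 as a group. Of 6 measured, 2 were higher in members in both libraries and 4 lower, and the median log2 ratio was -0.07. Cav2, the partner of caveolin-1, had 127 and 141 CPM against 74.8 and 75.4 CPM, and Cavin1, a coat component, had 139 and 152 CPM against 103 and 112 CPM. The relatives of the other rule genes stood close to the all-gene median, with a mean log2 ratio of -0.10 for Ndrg3 and 0.26 for Tppp. Of 7 genes of extracellular nucleotide and adenosine handling, 4 were higher and 3 lower (median 0.08). Only Nt5e among them was 2-fold higher. Entpd1, which encodes CD39, the enzyme that supplies AMP to CD73, had 169 and 153 CPM against 246 and 217 CPM, and Enpp1 had log2 ratios of -1.44 and -1.39.

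Among 8 genes of osteopontin and its receptors, 5 were higher and 3 lower (median 0.12), beside 38.2% and 41.1% of all genes. Spp1 and Cd44 were the 2 past 2-fold, beside 0.562% of all genes. Cd44, which encodes a receptor for osteopontin and hyaluronan, had 1575 and 1765 CPM in members against 777 and 858 CPM, a log2 ratio of 1.02 and 1.04. Itga5, the fibronectin receptor subunit, had ratios of 0.81 and 0.68, and Itga9 had -0.84 and -1.07.

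Glycolysis genes were higher in members nearly without exception. Of 15 genes of glycolysis and lactate export, 14 were higher in both libraries and none lower in both, beside 38.2% and 41.1% of all genes. The median log2 ratio of the 15 was 0.52, and none reached 2-fold. Gapdh had 802 and 971 CPM against 551 and 670 CPM, Pkm, the pyruvate kinase, had 523 and 631 CPM against 325 and 385 CPM, and Ldha, lactate dehydrogenase, had 301 and 375 CPM against 208 and 263 CPM. The lactate exporter Slc16a3 and the phosphofructokinase Pfkp had log2 ratios of 0.70 to 0.85, and the exception was the hexokinase Hk3, at -0.39 and 0.01. Of 14 hypoxia-inducible genes, 10 were higher and 2 lower (median 0.27). Slc2a1, whose promoter is printed above, had 33.4 and 48.8 CPM against 16.4 and 22.4 CPM and was the only 1 past 2-fold. The transcription factor gene Bhlhe40 and the mitophagy gene Bnip3 had ratios of 0.52 to 0.70, while Pfkfb3, which drives glycolytic flux, was lower (-0.69 and -0.84).

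Lipid-associated genes were split. Of 21, 6 were higher and 12 lower (median -0.11). Lgals3, which encodes galectin-3, had 2392 and 3014 CPM against 1322 and 1574 CPM, and the tetraspanin gene Cd9 had 1248 and 1568 CPM against 648 and 808 CPM. Apoe had 2540 and 2250 CPM against 5760 and 5629 CPM, and the lysosomal protease gene Ctsd had 519 and 503 CPM against 1084 and 998 CPM. Trem2, the lipid-sensing receptor gene, had 578 and 601 CPM against 581 and 644 CPM. Of 13 osteoclast genes, 4 were higher and 8 lower (median -0.08). Ctsk, the collagen-degrading cathepsin, had 207 and 263 CPM against 109 and 125 CPM, whereas Csf1r had log2 ratios of -0.60 and -0.59. Mitf, the transcription factor gene that the study followed, had 665 and 384 CPM in members and 691 and 408 CPM in others.

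Of 15 matrix and protease genes, 7 were higher and 7 lower (median -0.09). Fn1, which encodes fibronectin, had 2780 and 3304 CPM against 1876 and 2235 CPM. Adam8 and the urokinase receptor gene Plaur had ratios of 0.58 to 0.82, and the protease inhibitor gene Timp2 was at -0.81 in both libraries. Growth factor genes were mostly lower, 11 of 13 and 3 of them past 2-fold (median -0.72), beside the same shares of all genes, 41.1% and 2.12%. Gas6, a bridging ligand for dying cells, had 130 and 113 CPM against 393 and 380 CPM, and Igf1 and Nrp1 had ratios of -1.86 to -1.03, with Pdgfb as the exception (0.46 and 0.45). Of 15 chemokine genes, 3 were higher and 10 lower (median -0.56), and among the 3 were the receptor gene Cxcr4 (132 and 172 CPM against 89.6 and 112) and Cxcl2, a neutrophil attractant. Of 7 cytokine genes, 2 were higher and 4 lower (median -0.12).

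Resident and scavenger receptor genes were lower in 12 of 13 cases, 10 of them past 2-fold (median -1.74), beside 41.1% and 2.12% of all genes. Lyve1 had 245 and 250 CPM against 865 and 829 CPM, Mrc1 had 591 and 554 CPM against 1439 and 1356 CPM, and Stab1 had 135 and 125 CPM against 457 and 423 CPM. The macrophage scavenger receptor gene Msr1 stood apart, with log2 ratios near 0 (0.03 with PBS). All 5 MHC class II genes not used by the rule were lower (median -1.83), with the same limit as for H2-Eb1. Among them Cd74 had 607 and 989 CPM against 2263 and 3349 CPM. All 6 interferon-inducible genes were lower (median -0.74), as were 9 of 11 complement and Fc receptor genes (median -0.31). Immediate-early and stress genes were higher in 14 of 21 cases (median 0.13), with the heat shock genes Hspa1a and Hspa1b at ratios of 0.74 to 1.02. Of 10 genes of the oxidative response and iron handling, 6 were higher and 3 lower (median 0.08), and the haem-degrading Hmox1 and the transferrin receptor gene Tfrc were past 2-fold lower. The nuclear RNA Malat1 was higher in members (27839 and 25200 CPM against 17737 and 16155 CPM).

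Members also differed among themselves. Within members, levels were summed in 3 ranges of the score, 0.5 to 1 (231 and 138 cells), 1 to 1.5 (189 and 131 cells) and 1.5 or more (133 and 96 cells). Cd44 increased along the score, with 1297, 1627 and 1994 CPM in β-glucan members and 1480, 1750 and 2216 CPM in PBS members. Spp1 had 395, 590 and 859 CPM with β-glucan, and 584, 590 and 1182 CPM with PBS, where the highest of these ranges stood out. Spp1 did not rise steadily with PBS, since cells at 0.5 to 0.6 had 1072 CPM and those just outside the threshold 1244 CPM. With β-glucan the values at this border were 245 and 270 CPM. Nt5e had 41.0, 81.0 and 146 CPM with β-glucan and 51.6, 54.2 and 108 CPM with PBS. Vim and Lgals3 were likewise highest in the highest range. Cd163 went the other way, with 122, 67.7 and 24.4 CPM and 122, 101 and 15.99 CPM, as did Mrc1, which had 877 CPM in the lowest and 272 CPM in the highest range of the β-glucan library and 719 and 227 CPM in those of the PBS library. Genes that tend to occur with the 3 rule genes could follow the score because the score is made from them, so these values describe the gradient and test nothing.

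**Figure D3:**
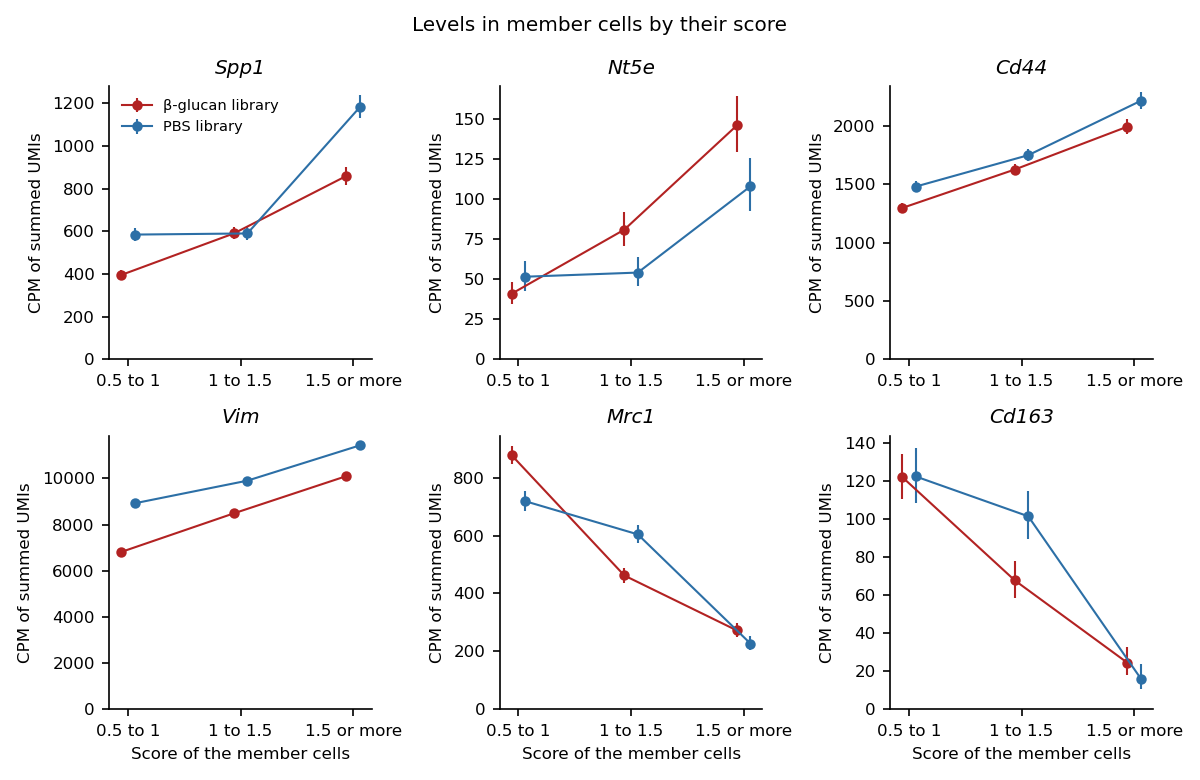
CPM of summed UMIs of 6 genes in members grouped by score (0.5 to 1, 1 to 1.5, and 1.5 or more), with 1 line per library and 95% Poisson intervals as bars. Spp1, Nt5e, Cd44 and Vim are highest at scores of 1.5 or more in both libraries, and Mrc1 and Cd163 are lowest there.

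The members were then split by which of the 3 genes had the highest z value in a cell. Cav1 led in 251 β-glucan members (45.4%) and 158 PBS members (43.3%), Ndrg1 in 249 (45.0%) and 163 (44.7%), and Tppp3 in 53 (9.58%) and 44 (12.1%). Because a member must reach a mean over 3 genes, a cell high in one could be low in another, and the Spearman correlation of Cav1 with Ndrg1 across members was -0.39 (n = 553) and -0.44 (n = 365), against 0.23 and 0.23 across all C1q-positive cells. Cells share a library and differ in depth, so these are descriptions. Spp1 and Nt5e correlated with each other by 0.35 and 0.38 across members and by 0.33 and 0.34 across all C1q-positive cells.

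Within members, Spp1 and Nt5e were higher where Cav1 led than where Ndrg1 led. The way members were chosen sets Cav1 against Ndrg1, and across all C1q-positive cells Ndrg1 correlated by 0.12 and 0.14 with Spp1 and by 0.16 and 0.14 with Nt5e, whereas across members the values were -0.12 and -0.12, and -0.12 and -0.20. Spp1 had 813 and 908 CPM in Cav1-led members against 370 and 546 CPM in Ndrg1-led members, and Nt5e had 102 and 99.8 CPM against 55.9 and 29.5 CPM. Mmp14, which encodes a membrane-bound matrix metalloproteinase, had 109 and 120 CPM against 60.6 and 59.7 CPM. The lysozyme gene Lyz2 had 14756 and 16902 CPM against 9547 and 9110 CPM. The resident macrophage receptor genes Cd163 and Lyve1 stood higher where Ndrg1 led. Cd163 had 18.7 and 16.7 CPM in Cav1-led members and 136 and 150 CPM in Ndrg1-led members, and Lyve1 had 107 and 110 CPM against 362 and 384 CPM. Anxa8 also stood higher where Ndrg1 led, with 93.1 and 115 CPM against 50.4 and 33.7 CPM, and so did the receptor gene Fgfr1, with 198 and 226 CPM against 106 and 96.0 CPM. The caveola genes divided, since Cav2 was higher where Cav1 led (153 and 167 against 103 and 120 CPM) and Cavin1 where Ndrg1 led (163 and 191 against 111 and 108 CPM). Of 8444 genes with at least 10 CPM, 9 were at least 2-fold higher in Cav1-led members in both libraries and 36 in Ndrg1-led members, and the median log2 ratio was -0.03. The genes named for this split were chosen after their values were seen. The mast cell genes Cma1, Mcpt4 and Hdc were among those higher in Ndrg1-led members, and so were the neutrophil genes S100a9, with 190 and 51.2 CPM against 42.1 and 21.6 CPM, and S100a8, with 147 and 60.4 CPM against 41.8 and 30.9 CPM. The part of these cell types in the split was not tested.

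**Figure D4:**
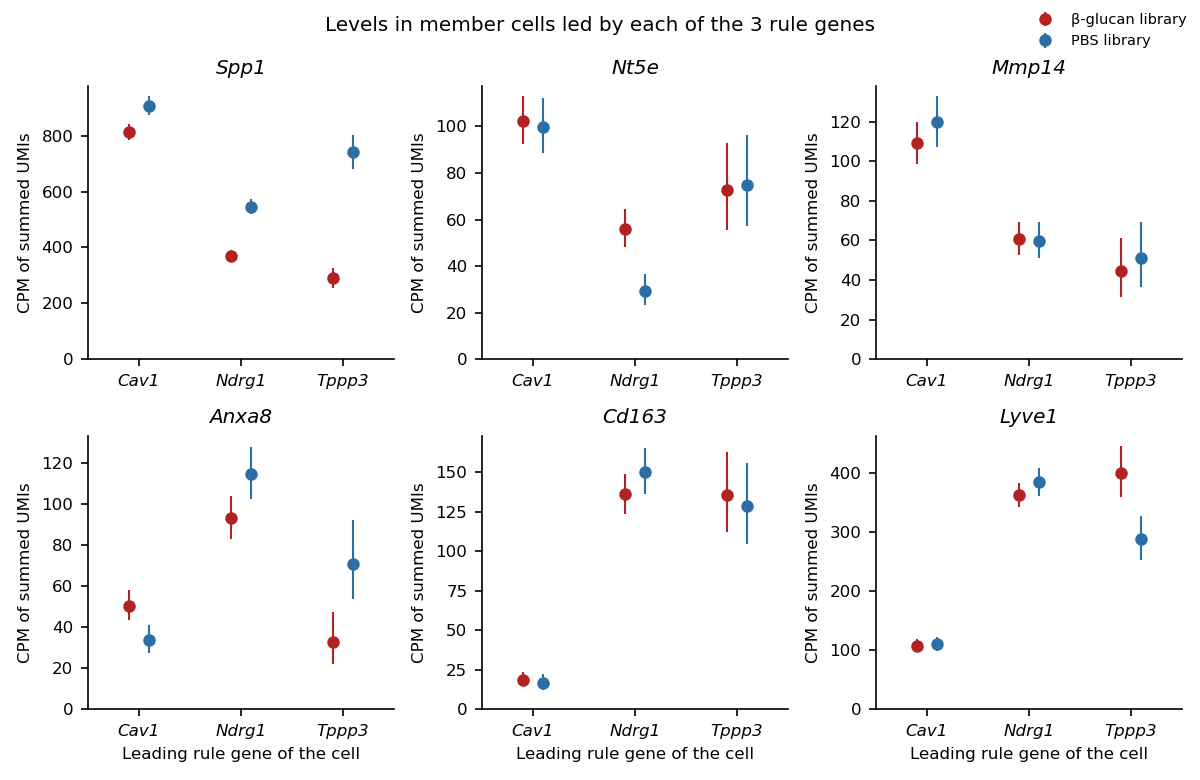
CPM of summed UMIs of 6 genes in members led by Cav1, Ndrg1 or Tppp3, with 1 point per library and 95% Poisson intervals as bars. Cav1-led members are highest in Spp1, Nt5e and Mmp14 and lowest in Cd163 and Lyve1 in both libraries, while for Anxa8 the Ndrg1-led members are highest.

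Over genes with at least 50 CPM, the members were most like the Olr1, Pdpn and Rgs1 cells. For this, CPM were first averaged over the 2 libraries. The root mean square log2 difference of these means from the Olr1 cells was 0.266 over 3988 genes. It was 0.457 for the Aqp1, Ildr2 and Uaca cells and 0.499 for the H2-Aa, Ccr2 and Ciita cells. Only 34 genes were at least 2-fold apart between members and the Olr1 cells in the averaged CPM. Among the genes lower in members were Tnf, Cd83 and Atf3. Tnf had 26.4 and 26.8 CPM in members and 71.6 and 94.5 CPM in the Olr1 cells, Cd83 had 255 and 254 CPM against 765 and 667 CPM, and Atf3, a stress-induced transcription factor gene, had 187 and 190 CPM against 481 and 454 CPM. Fxyd2, a regulator of the sodium pump, was higher in members (1424 and 1506 CPM against 480 and 681 CPM). From the Aqp1 cells, which share the high Tppp3, members differed in Nt5e and Spp1, with mean log2 ratios of 3.55 and 2.73, and in Egfr, Cd163 and Lyve1, at -2.92, -2.85 and -2.80. From the H2-Aa, Ccr2 and Ciita cells they differed in Nt5e and Spp1 (3.01 and 2.34), in the proteoglycan gene Cspg4, with 170 and 196 CPM against 32.8 CPM in either library, and in H2-Eb1 (-4.58). These genes were also chosen after their values were seen, and each set was chosen on measured values, so no test is given.

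The comparison of the libraries asked how these macrophages differed between β-glucan and PBS pretreatment. Mitf, Fgd4 and Pdgfc were higher in β-glucan members, while Slc7a2 and Cebpb were lower, and similar differences were present in the other C1q-positive cells. Of 8417 genes with at least 10 CPM in members, 180 had a log2 ratio of β-glucan over PBS of 0.5 or more (2.14%) and 116 of -0.5 or less (1.38%). With members of the 2 libraries matched on the share of their UMIs from genes of 100 kb or more, the counts were 99 and 158, so the majority changed sides. The median log2 ratio was 0.02 in members and, over the same genes, 0.02 in the other C1q-positive cells. The ratios of the rule genes were 0.05 for Cav1, -0.02 for Ndrg1 and -0.11 for Tppp3, which the common score threshold for both libraries largely fixed. Spp1 was at -0.35 (-0.41 to -0.29) in members and -0.02 in the others, and Nt5e at 0.27 (0.09 to 0.45) and 0.39. Whether the 2 populations differ in this was not tested.

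Mitf, which encodes a transcription factor of osteoclasts and pigment cells, had 665 CPM in β-glucan members and 384 CPM in PBS members, a log2 ratio of 0.79 (0.72 to 0.86), and the ratio in the other C1q-positive cells was 0.76. Fgd4, an activator of the small GTPase CDC42, had 201 and 104 CPM (0.96, 0.83 to 1.09). Pdgfc, a platelet-derived growth factor gene, had 119 and 70.9 CPM (0.75, others 0.78). Calcrl, the receptor for adrenomedullin and CGRP, and the protein kinase C gene Prkch had ratios of 0.82 and 0.78, against 0.70 and 0.52 in the others. All 5 kept ratios of 0.78 or more when the 5 cells with the most UMIs of the gene in each library were left out. The remaining 5 of the 10 highest, S100a9, S100a8, Il1b, Il1r2 and Cma1, are genes of neutrophils, inflammation and mast cells. For Il1b 61.0% and 94.4% of the UMIs, for S100a9 83.8% and 96.3% and for Cma1 99.6% and 96.8% came from 5 cells of each library. Without those cells the log2 ratio was 3.93 for Il1b, 3.55 for S100a9, 1.90 for Il1r2 and 1.06 for S100a8, so the 4 kept their direction but not, for Il1b and S100a9, their size, with 14 and 9 UMIs left in PBS members. Cma1 kept 2 and 7 UMIs and turned to -2.15 (-5.45 to 0.25). The part of neutrophils and mast cells, whose summed markers are given above, was not tested.

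Of the 10 genes lowest with β-glucan, Slc7a2 had a large ratio with and without its highest cells. Slc7a2, an arginine transporter, had 13.9 CPM in β-glucan members and 372 CPM in PBS members, a log2 ratio of -4.74 (others -3.65), with UMIs in 48 and 63 cells. Without the 5 cells with most UMIs in each library, Slc7a2 had 165 CPM in PBS members, and the ratio was -4.44. Cebpb, a transcription factor gene, had 295 and 488 CPM (-0.72, others -0.68), and Nr4a2, Per1 and Ccl2 had ratios of -0.93 to -0.81. AA467197 was at -1.03, against -1.54 in the others. Without the 5 cells with most UMIs of the gene in each library, AA467197 moved to -0.68 (-0.87 to -0.50) and Ccl2 from -0.84 to -0.66. Cebpb, Nr4a2 and Per1 were then at -0.73, -0.99 and -0.84. For Mmp12, Prg4 and Gbp2 the PBS UMIs lay in few cells. Of the 445 PBS UMIs of Mmp12, 99.8% came from 5 cells, and without the 5 cells the ratio of Prg4 moved from -3.81 to 0.02 and that of Gbp2 from -2.97 to -0.62.

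**Figure D5:**
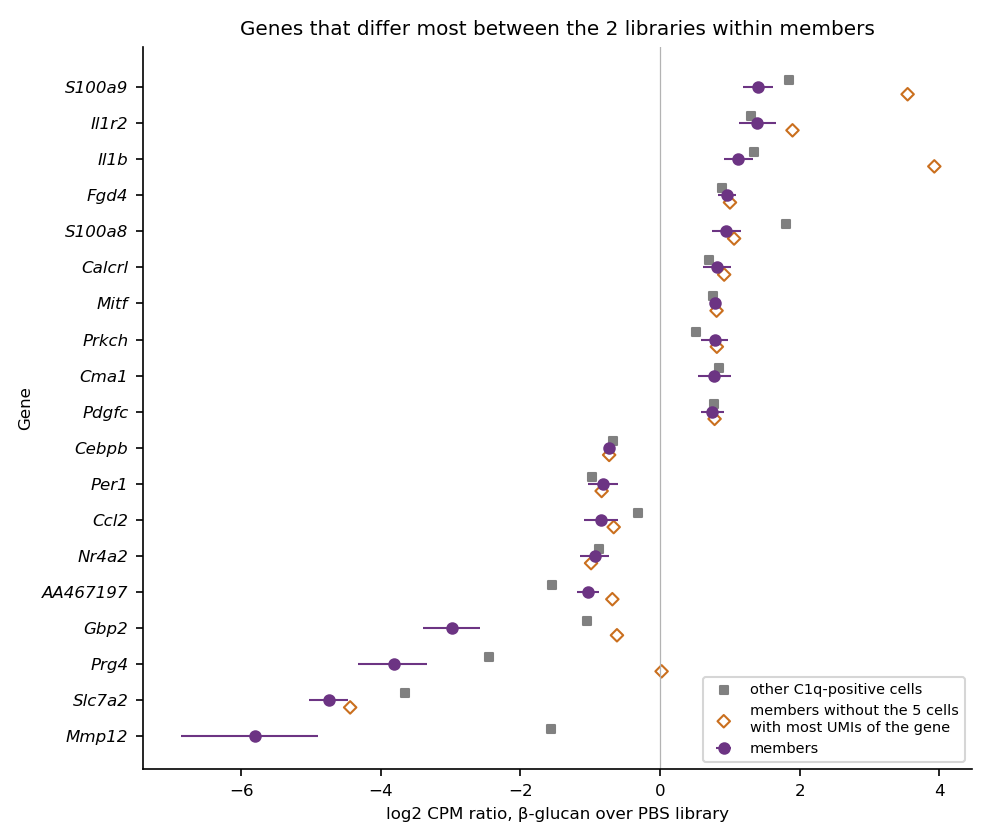
Log2 CPM ratio of the β-glucan over the PBS library for the genes furthest from 0 in members that the text names, with 95% intervals, beside the ratio in other C1q-positive cells and the ratio in members without the 5 cells with the most UMIs of the gene. Mitf lies at 0.79 in members and 0.76 in other cells, and Prg4 moves from -3.81 to 0.02 without 5 cells per library.

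Among the gene groups, glycolysis genes were mostly lower with β-glucan, each by less than the threshold, beside 46.5% of all 8417 genes that were lower at any size. Of 15 glycolysis genes 13 were lower and 2 higher, with a median log2 ratio of -0.27 in members and -0.27 in the other C1q-positive cells, and none reached 0.5 in size. Of 14 hypoxia genes 9 were lower and 5 higher (median -0.18, others -0.13). Slc2a1 was at -0.55 (-0.79 to -0.31) and Ankrd37, a hypoxia-induced ankyrin repeat gene, at -0.98. All 5 MHC class II genes were lower (median -0.56, others -0.53), with Cd74 at 607 and 989 CPM. Of 15 matrix and protease genes, 11 were lower (median -0.06), Plaur and Adam8 by 0.51 and 0.50 on the log2 scale. Immediate-early and stress genes were lower in 16 of 21 cases (median -0.10, others -0.16), with the phosphatase gene Dusp1 at -0.63 and the transcription factor gene Klf4 at -0.56.

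The medians of the other groups lay on either side of that of all genes. The resident receptor genes had a median of 0.11 in members (7 of 11 higher), the lipid-associated genes 0.00 (11 of 21 higher), the osteoclast genes -0.05 (5 of 11 higher) and the adenosine genes 0.14 (5 of 7 higher). Growth factor genes had a median of 0.10 and osteopontin and its receptors 0.11, the caveola genes -0.08, and the complement and Fc receptor genes -0.03. Of 14 chemokine genes 9 were higher and 5 lower (median 0.12), of which 3 had a log2 ratio of 0.5 or more and 2 of -0.5 or less, beside 2.14% and 1.38% of all genes. Ccl4 was at 1.93 and Ccl3 at 0.98, from levels below 20 CPM, Ccl7 at -0.72 and Ccl2 at -0.84, and Ccl6, with 260 and 175 CPM, at 0.58, while Ccl6 was at 0.02 in the other C1q-positive cells. The difference between the 2 populations was not tested. Of the 16 genes that the study singled out in these same libraries, 14 were higher with β-glucan in members, beside 53.5% of all genes. The other 2, Klf2 and Clec5a, were lower (median of the 16 0.26, others 0.25). In its main myeloid compartment the study reported Klf2 and Nr4a1 as lower with β-glucan and Clec5a as not altered. For 4 of the 14 the interval spanned 0, namely Csf1r, Hpgds, Mapk14 and Nr4a1, and for 10 it lay above 0. Mitf and Plekhg5 were the 2 with a log2 ratio of 0.5 or more, beside 2.14% of all genes. That list was chosen on these libraries and its genes were not all named for the same direction, so the count is not independent evidence of a direction.

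Gene length moved with the library ratio. In members, the 1239 genes of 100 kb or more had a median log2 ratio of 0.15 and 67 of them (5.41%) reached 0.5, the 5635 genes of 10 to 100 kb had a median of 0.02, and the 1533 shorter genes -0.06. The long-gene share of UMIs in the median member was 18.5% (β-glucan) and 17.0% (PBS). In the other C1q-positive cells it was 20.1% and 18.3%. Mitf spans 214 kb, and its ratio was 0.58 when members of the 2 libraries were matched on that share. The part of this length pattern in the results was not tested otherwise.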

How the data were processed

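UMI counts per gene and barcode were deposited by the authors as matrices of all barcodes that passed cell calling, made with Cell Ranger 7.0.0 against GRCm39 and Ensembl genes per the study's methods; the labels also list mm10, and whether intronic reads were counted is not given in the sources used here. These whole-number counts were used as deposited. Raw counts were summed over cells per library and set and divided by all UMIs of those cells (CPM). Of 32524 genes, 31870 were found by identifier in the GENCODE annotation of GRCm39, which gave spans and coordinates.

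The conditional binomial intervals of log2 ratios were tested on simulated data, while the Poisson and Clopper-Pearson intervals were not. With 1 library per group, no count model was fitted and fixed thresholds were used: a log2 ratio of 1 in both libraries for members over others, and 0.5 for β-glucan over PBS. Text names the 15 highest, the 10 lowest and, between libraries, the 10 highest and 10 lowest genes of at least 50 CPM outside the rule, and list genes. Between libraries, 50 CPM in 1 library was enough. Members and lists were chosen with earlier results of these data known. Scrublet in scanpy 1.11.5 called 0 of 5696 and 2 of 4553 cells (0.0439%), too few to serve as a filter, so doublets were kept. An alternative left out the 328 and 210 cells with the highest Scrublet score. The libraries shared 7 barcodes, 1 of them among members. Python 3.11.15, numpy 2.4.6, scipy 1.17.1, pandas 2.3.3 and matplotlib 3.10.9 were used. Alternatives were a higher score, thinning, matching on long-gene share, other filters and leaving out members that scored in another set. Some genes that these rules select are not reported here.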

Additional observations from a re-analysis of the deposited data

Results flagged for a closer look

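Genes named for members were considered if they had at least 10 CPM in the mean of both libraries and a log2 ratio of at least 0.5 in size in members. Of these, 3 had opposite directions between β-glucan and PBS in members and in the other C1q-positive cells. Their intervals lay on either side of 0. The difference between the 2 populations was not tested. Dcn, which encodes the stromal proteoglycan decorin, had a log2 ratio of -1.60 (-2.04 to -1.18) in members and 2.503 in the others. It rested on 65 and 158 UMIs, and 79.1% of the PBS UMIs came from 5 cells. Egfr was at 0.53 (0.20 to 0.87) in members, from 217 and 120 UMIs, and at -0.38 in the others. Sparc was at -0.70 (-0.92 to -0.48) in members and 0.22 in the others, with 46.5% and 57.6% of its member UMIs in 5 cells.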

How the results depend on the processing

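Counts of genes past a fold threshold moved most, and the cause was not tested. Genes at least 2-fold higher in members numbered 49, 31 after thinning to 5000 UMIs and 19 with at least 50 CPM, and those lower numbered 185, or 70 with at least 50 CPM. Genes higher with β-glucan numbered 180, and 286 at a score of at least 1, 455 after thinning, 354 without members that scored in another set, 99 after matching on long-gene share and 37 with at least 50 CPM. Genes lower with β-glucan numbered 116, and 215 at a score of at least 1, 331 after thinning, 214 without members that scored in another set, 158 after matching and 26 with at least 50 CPM. The member share was 7.59% and 7.37% at a score of at least 1, and 7.61% and 5.55% without members that scored in another set. Of the other 48 values of these results, each stayed within the spread or within 1.5 times. Mitf in members over others turned from -0.06 to 0.043 with β-glucan and from -0.09 to 0.056 with PBS after thinning, and no other named value reversed. The log2 ratios of Nt5e and Spp1 kept their directions under each alternative run, with Spp1 between the libraries ranging from -0.56 to -0.17. Nt5e between the libraries ranged from 0.12 with equal weight per cell to 0.53, past the threshold of 0.5, at a score of at least 1. Leaving out cells with 10 UMIs of another cell type's markers, chosen after seeing the data, gave 44 genes higher and 199 lower in members, and 167 higher and 121 lower with β-glucan. No paired analysis was possible because each group has 1 library, and for the same reason no replicate could be left out. Genes under 10 CPM were not compared at this depth.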
